A study of Rattus norvegicus with 8 samples.

Results

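Peripheral blood mononuclear cells (PBMCs) cultured with plasma of adult rats exposed to 10% intermittent hypoxia (IH) as neonates were compared with PBMCs cultured with autologous plasma. The comparison was chosen by the titles of the arrays and takes 4 of the 8 arrays of the series, 2 with 10% IH plasma and 2 with autologous plasma, with 1 array of each kind for reporter donor BN1 and for reporter donor BN2. The cells on all 4 arrays came from healthy male Brown Norway rats of about 180 days, and 500000 of them per culture were kept for 6 h in low-attachment wells with 20% plasma. The 10% IH plasma was a pool from 3 male Sprague-Dawley rats that breathed 10% oxygen intermittently over 1 h daily on postnatal days 2 to 6, and that gave blood after an overnight fast as adults (age label PD114, for the postnatal day), younger than the Brown Norway rats. The autologous plasma came from the adult Brown Norway rats, for which no hypoxic exposure is described, and served as the self background of the assay. Strain, age and housing of the plasma donors, pooling and neonatal exposure all differ between these plasmas, and only the autologous plasma was the cells' own. In these 4 arrays the parts of these factors in a difference cannot be told apart. The series also holds pooled plasma of normoxic Sprague-Dawley rats of the same age, and its direct contrast with 10% IH plasma is given below. The same plasma pool met the cells of both donors, and the 2 arrays of a plasma therefore show how reporter donors and cultures varied and say nothing of variation among IH animals. Labels of the autologous arrays conflict: the titles and descriptions pair each donor's cells with that donor's plasma, 1 source label names cells or plasma of both donors, and another field names BN1 plasma for both arrays.

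PBMCs are the lymphocytes and monocytes of blood, here used as a sensor of soluble factors in plasma. Monocytes carry receptors for microbial products, immune complexes and complement, and when these are engaged the transcription factor NF-kB switches on cytokine and chemokine genes within hours. Monocytes in culture also begin to take on macrophage features, among them lipid handling, matrix proteins and antioxidant enzymes.

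Values are log2 levels of Affymetrix probe sets, and a gene stands for its brightest probe set with 1 gene symbol, which gave 14217 genes. Medians of the 8 arrays lay between 5.53 and 5.56. The 2 arrays of 10% IH plasma correlated at r = 0.9955 across probe sets and the 2 autologous arrays at 0.9956, against 0.9973 for control and 0.997 for 5% IH plasma. On the main axis of variation (44.4% of the variance) the arrays of 10% IH plasma lay at -10.7 and -7.23 and the autologous arrays at 35 and 29.1, with the other 4 arrays between -14.4 and -7.9. The 10% IH array of donor BN1 stood apart on the second axis (16.6% of the variance), at -26 against 4.82 for the BN2 array, and counts are given without it below. No detection calls or control probe sets were at hand, so that background and RNA quality were not assessed.

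With 10% IH plasma, 254 of 14217 genes were higher than with autologous plasma at a limma p under 0.05 after Benjamini-Hochberg adjustment (1.79% of genes tested), and 4 were lower (0.0281%). Over all probe sets, 372 of 31042 were higher (1.2%) and 17 lower (0.0548%). Rises thus made up 98.4% of the called genes, while the median log2 ratio over all genes was -0.0059 and 48% of genes lay above 0. The median rise of the 254 was 1.02 on the log2 scale, with a range of 0.44 to 5.31; 135 were beyond 2-fold, 52 beyond 4-fold and 19 beyond 8-fold. All 254 were higher in the cells of both donors with no overlap between the groups, where 37.9% of all genes did not overlap in either direction. The genes were called on these same arrays, which nearly requires this, so that it lends the calls no further weight. The rise was the larger of the pair in donor BN1 for 120 of them, with medians of 1.01 in BN1 and 1.07 in BN2. Without the BN1 array of 10% IH plasma 173 genes were higher, 168 of them among the 254, and over each of the 4 arrays left out the number ranged from 173 to 210. The call held without each array for 148 of the 254, and none of the 254 turned direction.

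**Figure D1:**
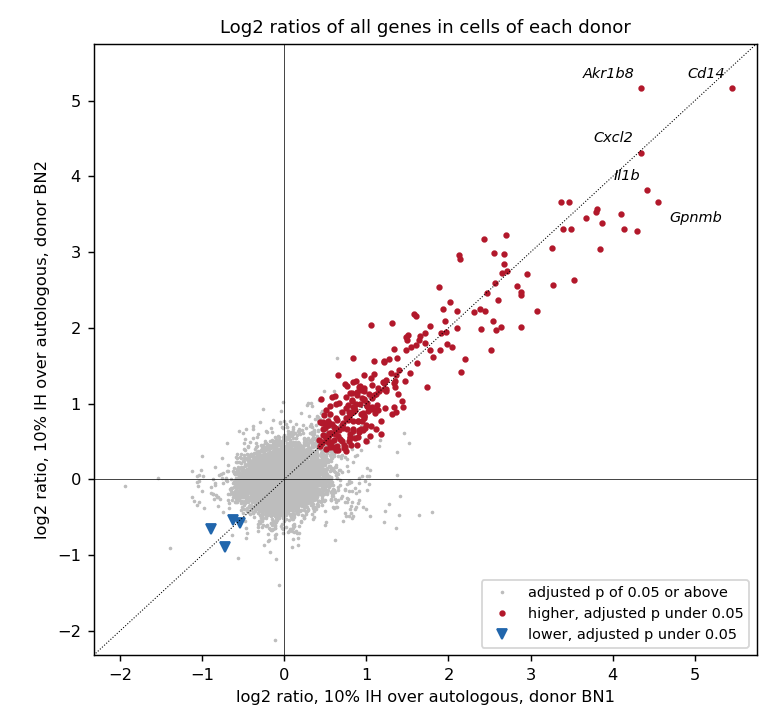
Log2 ratio of 10% IH over autologous plasma for each of the 14217 genes, in cells of donor BN1 (x axis) and of donor BN2 (y axis), 1 array per plasma and donor; red points are the 254 genes called higher, blue triangles the 4 called lower and the dotted line marks equal ratios. The red points lie along the dotted line up to *Cd14*, at 5.45 in BN1 and 5.16 in BN2.

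The largest rise was that of *Cd14*, the monocyte co-receptor for bacterial lipopolysaccharide. Its level was 9.93 and 9.94 with 10% IH plasma, against 4.48 and 4.78 with autologous plasma (donors BN1 and BN2 in this order, here and below). Both 10% IH arrays were thus more than 5 log2 units above either autologous array, a 39.6-fold difference (log2 ratio 5.31, standard error 0.131, adjusted p = 8.13e-07, n = 2 arrays per group). *Akr1b8*, an aldo-keto reductase, had 7.51 and 8.15 with 10% IH plasma, against 3.16 and 2.99 with autologous plasma (27.0-fold, adjusted p = 1.1e-05). *Gpnmb*, a glycoprotein of macrophages, had 9.22 and 9.41 against 4.67 and 5.74 with autologous plasma (17.3-fold). For this gene the groups were well apart, although the autologous arrays differed by more than 1 log2 unit. *Clec4a3*, a C-type lectin receptor of myeloid cells, rose by 3.80, *Igsf6*, an immunoglobulin superfamily receptor, by 3.69, and *Cd300c2*, a receptor of the CD300 family, by 3.45. *Mpeg1*, the pore-forming perforin-2 of macrophages, had 8.85 and 9.04 with 10% IH plasma and 5.37 and 5.38 with autologous plasma (3.57, adjusted p = 3.36e-06), and its second probe set rose by 0.68. Matrix genes were also among the 15 largest rises: fibronectin, *Fn1*, rose by 3.78, versican, *Vcan*, by 3.73 and *Tgfbi*, an extracellular protein induced by TGF-beta, by 3.66. *Vcan* has 5 probe sets, 4 of them called higher, with log2 ratios from 0.026 to 4.76. All 15 were called without each of the 4 arrays in turn.

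**Figure D2:**
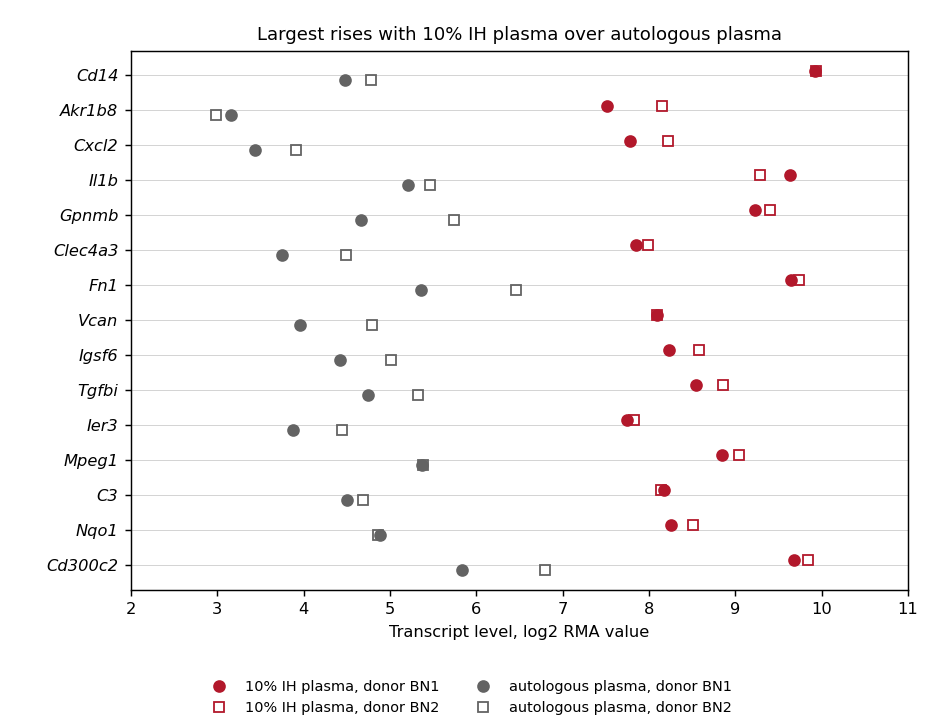
Log2 level on each of the 4 arrays for the 15 genes with the largest rises, with 10% IH plasma in red and autologous plasma in grey, donor BN1 as filled circles and donor BN2 as open squares. In every gene both red symbols lie to the right of both grey symbols; *Cd14* shows the widest gap of the 15, with 9.93 or more with 10% IH plasma against 4.78 or less with autologous plasma.

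Markers of monocytes and macrophages were higher with 10% IH plasma for 7 of 16 measured, where 1.79% of all genes were called higher. Their median log2 ratio was 0.79, against -0.0059 over all genes, and none was lower. The same list had 8 members called higher with normoxic control plasma (median 0.829) and 9 with 5% IH plasma (0.759). *Csf1r*, the receptor for macrophage colony-stimulating factor, had 7.80 and 7.94 with 10% IH plasma, against 4.53 and 5.37 with autologous plasma. *Lyz2*, lysozyme, had 11.01 and 11.09 against 7.93 and 8.88 with autologous plasma, and *Fcgr1a*, the high-affinity IgG receptor, had 7.12 and 7.43 against 3.86 and 4.38. In each of these genes the lower 10% IH array was above the higher autologous array by 2 log2 units or more. *Itgam*, the integrin CD11b, rose by 2.28 and *Cd68*, a lysosomal glycoprotein, by 1.07, and the 7 calls held without each of the 4 arrays. Other markers of the same cells did not pass: *Adgre1*, the macrophage receptor F4/80, had a log2 ratio of 1.04 (adjusted p = 0.0805), *Ccr2* 0.46, *Cx3cr1* 0.39, the calgranulins *S100a8* and *S100a9* 0.21 and 0.14, *Aif1* 0.08 and the scavenger receptor *Cd163* -0.21. By the mean of the probe sets of each gene, with adjustment over genes alone, 11 of the 16 were called higher. They included *Aif1* at 0.64 (limma adjusted p = 0.00538) and *Adgre1* at 1.04 (0.0389). Summed on the linear scale, the 16 monocyte markers came to 5676 and 5928 with 10% IH plasma and 1703 and 1928 with autologous plasma. In RNA of a whole culture, fewer cells of a type and less RNA per cell cannot be told apart, and the part of the number of monocytes in these and the following rises was not tested.

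Of the markers of the other cells that a PBMC preparation can hold, 1 or none was called per list, where 1.79% of all genes were called higher. T cell markers were called for 0 of 17 (median -0.02), with *Cd3e*, the CD3 epsilon chain, at 10.40 and 10.32 with 10% IH plasma and 10.40 and 10.26 with autologous plasma, and with *Cd6* highest at 0.22 and *Bcl11b* lowest at -0.16. Summed levels of these markers were 21690 and 20400 with 10% IH plasma, against 22220 and 20840. B cell markers were called for 0 of 12 (median 0.062), from *Ebf1* at -0.38 to *Fcer2*, the low-affinity IgE receptor, at 0.65, with sums of 8358 and 7427 against 8270 and 6929 with autologous plasma. NK and cytotoxic markers were higher for 1 of 16, and that gene was *Cst7*, an inhibitor of cathepsins (1.07, called without each array), while *Gzmb*, granzyme B, was at -0.37 and the sums were 5156 and 4869 against 5440 and 5279. Neutrophil markers were higher for 1 of 10, *Csf3r*, the G-CSF receptor (0.99), whose call was lost without the BN2 array of 10% IH or either autologous array (adjusted p = 0.0622 to 0.0836), and *Np4*, a neutrophil defensin, was at -0.11. The neutrophil sums were 225.4 and 277.2 with 10% IH plasma and 185.6 and 253.4 with autologous plasma, which overlap. Dendritic cell, platelet, erythroid and mast cell markers had 0 of 8, 0 of 12, 0 of 8 and 0 of 12 members called, with medians of -0.055, -0.10, -0.13 and -0.037. Their sums were 3087 and 3165 against 2868 and 2814 with autologous plasma for dendritic cells, 15140 and 14420 against 15260 and 16600 for platelets, 19120 and 18420 against 17730 and 18640 for erythroid cells, and 278.7 and 274.6 against 281.4 and 280.3 for mast cells.

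Inflammatory chemokines were called higher for 5 of 31 measured (median 0.065), and the 26 others were not called in either direction. Over all genes 1.79% were called higher, the share to set beside this count and those of the lists that follow. *Cxcl2*, a ligand of CXCR2 that attracts neutrophils, had 7.77 and 8.21 with 10% IH plasma, against 3.43 and 3.91 with autologous plasma (20.0-fold, standard error 0.229 on the log2 scale, adjusted p = 2.31e-05). The ratio was nearly the same in both donors, 4.34 and 4.31. *Cxcl1*, a ligand of the same receptor, had 5.54 and 5.72 against 3.14 and 3.74 with autologous plasma (log2 ratio 2.19). *Cxcl16*, a membrane-anchored scavenger receptor and chemokine, rose by 2.77, and the monocyte attractant *Ccl2* had 5.13 and 5.08 with 10% IH plasma and 3.52 and 2.93 with autologous plasma. *Ccl3*, a ligand of CCR1, rose by 1.17, with an adjusted p = 0.0736 without the BN1 array of 10% IH plasma (log2 ratio 1.13). *Ccl4* and *Ccl5*, chemokines of the same CC family, stood at -0.18 and -0.09, with overlapping groups, and the lowest member was *Ccl27* at -0.26.

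Among the ligands and receptors of the IL-1 family, 3 of 11 were higher (median 0.33). *Il1b*, which encodes the cytokine IL-1 beta, had 9.63 and 9.28 with 10% IH plasma, against 5.21 and 5.47 with autologous plasma (17.4-fold, adjusted p = 3.35e-06). *Il1rn*, the antagonist that blocks the IL-1 receptor, had 6.06 and 6.04 against 5.24 and 4.99 with autologous plasma (log2 ratio 0.94), and *Il1rap*, the accessory chain of that receptor, rose by 0.80. *Il1a* did not pass (0.85, adjusted p = 0.0843), and the signalling receptor *Il1r1* was at -0.12. Of 26 other cytokines 5 were higher (median 0.11): *Vegfa*, an angiogenic factor, by 2.69, *Pdgfa*, a mitogen of mesenchymal cells, by 1.39, *Tnf* by 1.10, *Lta*, lymphotoxin alpha, by 0.99 and *Osm*, oncostatin M, by 0.72. *Tnf* had 5.82 and 6.12 with 10% IH plasma, against 4.73 and 5.00 with autologous plasma. Dimmer probe sets of these genes moved less, at 0.23 for *Vegfa*, 0.11 for *Tnf* and 0.25 for *Il1rap*. *Osm* lost its call without either 10% IH array or without the BN2 autologous array (adjusted p = 0.0688 to 0.0721). *Il6* and *Il10* had log2 ratios of 0.27 and 0.40 and did not pass, and *Tnfsf10*, the death ligand TRAIL, was lowest at -0.26.

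Promoter sequences are shown for 4 of the genes called higher whose windows hold a motif of an inflammatory or myeloid transcription factor. They are the RefSeq sequences of build GRCr8, from 250 bases before to 50 bases after the start of the gene, read 5′ to 3′ on the strand of the gene. *Cxcl2* (chr14:17467206-17467505, minus strand) and *Cxcl1* (chr14:17479272-17479571, minus strand) lie close to each other, and capitals mark the match to the NF-kB consensus, from base -74 to -64 and from -84 to -74. In *Ubd*, the ubiquitin-like protein FAT10 (chr20:1392636-1392935, minus strand), capitals mark the same motif from -15 to -6. In *Bcl2a1*, an antiapoptotic relative of BCL2 (chr8:98596556-98596855, plus strand), capitals mark GAGGAAGT, a motif of the myeloid factor PU.1, from -215 to -208.
Cxcl2: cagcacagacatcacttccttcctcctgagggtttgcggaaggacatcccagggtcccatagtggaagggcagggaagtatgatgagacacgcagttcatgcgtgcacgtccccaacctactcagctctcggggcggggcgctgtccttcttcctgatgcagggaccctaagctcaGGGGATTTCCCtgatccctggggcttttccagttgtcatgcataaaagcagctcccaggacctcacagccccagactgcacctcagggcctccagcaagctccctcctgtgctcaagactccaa
Cxcl1: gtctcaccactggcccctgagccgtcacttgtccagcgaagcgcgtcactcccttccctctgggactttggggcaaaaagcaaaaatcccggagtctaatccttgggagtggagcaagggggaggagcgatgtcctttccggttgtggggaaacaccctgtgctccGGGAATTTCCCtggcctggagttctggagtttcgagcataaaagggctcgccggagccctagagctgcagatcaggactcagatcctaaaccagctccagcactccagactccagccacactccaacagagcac
Ubd: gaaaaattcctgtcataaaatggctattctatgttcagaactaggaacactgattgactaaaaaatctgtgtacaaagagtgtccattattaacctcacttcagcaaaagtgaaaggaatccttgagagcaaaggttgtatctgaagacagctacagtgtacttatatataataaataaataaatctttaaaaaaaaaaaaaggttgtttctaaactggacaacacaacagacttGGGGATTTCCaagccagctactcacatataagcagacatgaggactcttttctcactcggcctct
Bcl2a1: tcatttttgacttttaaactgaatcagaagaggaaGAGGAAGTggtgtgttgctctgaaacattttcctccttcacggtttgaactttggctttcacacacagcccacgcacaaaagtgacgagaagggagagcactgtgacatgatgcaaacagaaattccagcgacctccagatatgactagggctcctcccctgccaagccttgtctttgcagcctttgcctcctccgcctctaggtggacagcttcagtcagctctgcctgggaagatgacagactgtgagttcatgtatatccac
Searched on both strands, the NF-kB consensus was present in 14.7% of 211 promoters of genes called higher, 9.73% of 11733 promoters of measured genes and 7.6% of all 27457 promoters. GAGGAAGT was present in 6.64%, 2.49% and 2.44% of these sets. TGACNNNGC, a motif of NRF2, was present in 11.8%, 14.4% and 12.2%, and TTGCNNAA, a motif of C/EBP factors, in 9.95%, 9.15% and 10.5%. These matches describe letters in the windows and were not tested.

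Of 21 subunits, inhibitors and targets of NF-kB, 6 were higher with 10% IH plasma, and all 21 had a log2 ratio above 0 (median 0.385). *Ier3*, an immediate-early regulator of survival, had 7.74 and 7.83 with 10% IH plasma, against 3.88 and 4.45 with autologous plasma (12.3-fold). *Bcl2a1* had 8.37 and 8.53 against 6.47 and 6.82 with autologous plasma, and the adhesion molecule *Icam1* had 8.25 and 8.29 against 6.97 and 6.70. *Nfkbiz*, a nuclear inhibitor-like cofactor of NF-kB, rose by 0.84, with 0.09 in its second probe set. *Bcl3*, another such cofactor, rose by 0.75 and *Sod2*, the mitochondrial superoxide dismutase, by 0.67, but *Bcl3* lost its call without either 10% IH array or the BN2 autologous array (adjusted p = 0.129 to 0.15) and with donor as a term of the fit (adjusted p = 0.0946), and *Sod2* without either 10% IH array or the BN1 autologous array (0.0544 to 0.235). The mean of the *Bcl3* probe sets gave 0.37 (adjusted p = 0.137). *Tnfaip2*, *Nfkbia* and *Tnfaip3*, which encodes the inhibitor A20, stood at 0.89, 0.39 and 0.05 and did not pass, and *Traf1* was lowest at 0.02.

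Rapid transcription factors and feedback inhibitors had 1 or 2 members called higher per list, where 1.79% of all genes were. *Fos*, a subunit of AP-1, had 6.12 and 6.07 with 10% IH plasma and 4.67 and 5.12 with autologous plasma, and with *Nr4a1*, an orphan nuclear receptor (0.71), made 2 of 20 immediate-early genes higher (median 0.051). *Nr4a1* lost its call without either 10% IH array or the BN1 autologous array (adjusted p = 0.115 to 0.223), the second probe set of *Fos* stood at -0.10, and *Egr1* stood at 0.17 and *Fosb* at -0.32. *Dusp6*, a phosphatase that inactivates ERK, rose by 1.26, the 1 of 11 phosphatases and sprouty proteins to pass (median 0.042). Its adjusted p was 0.0606, 0.0506 and 0.0736 without the BN1 array of 10% IH, the BN2 array of 10% IH and the BN1 autologous array, and *Spry2* was lowest at -0.38. *Cish*, a STAT5-induced inhibitor of cytokine signalling, and *Pim2*, a survival kinase, rose by 0.71 and 0.67, 2 of 17 members of the SOCS, PIM and STAT list (median 0.14). Both lost their calls without either 10% IH array or the BN2 autologous array (adjusted p up to 0.112), *Socs2* had the largest ratio of the list without passing (1.00, adjusted p = 0.129), and *Bcl6* was lowest at -0.31.

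Antioxidant genes controlled by the transcription factor NRF2 were higher for 6 of 13 (median 0.43). *Nqo1*, a quinone reductase, had 8.26 and 8.51 with 10% IH plasma, against 4.88 and 4.86 with autologous plasma (11.4-fold, adjusted p = 3.36e-06). *Slc7a11*, the cystine transporter, rose by 1.05 and *Txnrd1*, thioredoxin reductase, by 0.83. *Hmox1*, heme oxygenase, had 6.62 and 6.80 with 10% IH plasma and 5.56 and 4.76 with autologous plasma. Its ratio of 1.55 lost its call without either 10% IH array (adjusted p = 0.0816 and 0.0695), and *Srxn1*, sulfiredoxin (0.80), did so without each of the 4 arrays (0.0504 to 0.136) and as the mean of its 3 probe sets (0.30, adjusted p = 0.208). *Gclm*, a subunit of the glutathione synthesis enzyme, was at -0.24 and *Akr1b10* at -0.10.

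The unfolded protein response, which adjusts the folding capacity of the endoplasmic reticulum, was higher for 8 of 19 genes (median 0.508), with ratios under 2-fold. *Hspa5*, its chaperone BiP, had 11.35 and 11.40 with 10% IH plasma, against 10.33 and 10.50 with autologous plasma (1.95-fold, standard error 0.117 on the log2 scale, adjusted p = 0.0034). Of the other 7, *Creld2*, induced by stress of this organelle, rose by 0.84, the BiP cofactor *Sdf2l1* by 0.78, the disulfide isomerase *Pdia4* by 0.70, asparagine synthetase, *Asns*, by 0.68, the chaperone *Hsp90b1* by 0.65, *Manf*, a secreted stress protein, by 0.62 and *Pdia6* by 0.54. These 7 kept their direction but each lost its call without at least 1 array (log2 ratio 0.47 to 0.96, adjusted p up to 0.215). Left out in turn, the BN1 and BN2 arrays of 10% IH plasma and the BN1 and BN2 autologous arrays left 2, 3, 2 and 3 members called, and *Manf* had an adjusted p = 0.0733 with donor in the fit. *Herpud1*, another gene of the response, stood at -0.0008. Heat shock proteins of the cytosol were called for 0 of 11 (median 0.037), from *Hspa1a* at -0.13 to *Hspb1* at 0.22.

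Lipid handling genes, among them targets of the oxysterol receptor LXR, were higher for 4 of 21 (median 0.13). *Abca1*, which exports cholesterol, had 7.95 and 8.35 with 10% IH plasma, against 5.11 and 5.80 with autologous plasma, and its 4 probe sets ranged from 1.41 to 2.84. *Plin2*, a coat protein of lipid droplets, had 9.34 and 9.54 against 6.96 and 7.29 with autologous plasma, *Fabp5*, a fatty acid-binding protein, rose by 1.69 and *Nr1h3*, LXR alpha itself, by 1.12. *Pltp* was lowest at -0.14. In cholesterol synthesis, *Msmo1* and *Mvd* rose by 0.61 each, 2 of 19 (median 0.195); *Msmo1* lost its call without the BN1 array of either plasma (adjusted p = 0.059), *Mvd* without the BN1 array of 10% IH or either autologous array (0.0547 to 0.173), and *Sc5d* was lowest at -0.15.

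In arginine metabolism *Ass1*, argininosuccinate synthase, had 6.11 and 5.93 with 10% IH plasma and 4.17 and 3.69 with autologous plasma, and *Asl*, the next enzyme of that route, rose by 0.75, 2 of 17 members (median 0.11). *Asl* lost its call without either 10% IH array or the BN1 autologous array (adjusted p = 0.0673 to 0.267). *Nos2*, the inducible nitric oxide synthase, was at 0.12 and *Slc7a2* lowest at -0.21. Iron handling had 2 of 13 higher (median 0.066), *Hmox1* and *Lcn2*, lipocalin 2, which binds bacterial siderophores. *Lcn2* had 5.32 and 5.32 with 10% IH plasma, against 3.54 and 3.61 with autologous plasma, and the iron exporter *Slc40a1* was lowest at -0.43. Prostaglandin and leukotriene synthesis had 4 of 17 higher (median 0.04). *Ptgs2*, the inducible cyclooxygenase, had 4.70 and 4.53 against 3.21 and 2.69 with autologous plasma, and *Pla2g4a*, a phospholipase that releases arachidonic acid, rose by 1.08. Both lie under the 40th percentile of mean level, and without such probe sets 2 members of this list were called. *Tbxas1*, thromboxane synthase (0.78), lost its call without the BN1 array of either plasma, and *Lta4h*, which makes leukotriene B4 (0.57), without either 10% IH array or the BN1 autologous array (adjusted p up to 0.191), while the constitutive *Ptgs1* was at -0.21. Of 28 hypoxia-inducible and glycolysis genes 2 were higher (median 0.115), *Pfkfb4*, a regulator of glycolytic flux (0.81), and *Slc2a1*, the glucose transporter GLUT1 (0.52). Neither kept its call without the BN1 array of either plasma (adjusted p 0.0541 to 0.241), *Slc2a1* also lost it without the BN2 array of 10% IH (0.0862) and with donor in the fit (0.0583), and *Pfkp* was lowest at -0.35.

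Receptors of innate recognition were called higher for 5 of 17 pattern recognition genes (median 0.298), a list that shares *Cd14* with the monocyte markers. *Tlr8*, an endosomal RNA sensor, had 6.67 and 6.87 with 10% IH plasma, against 4.23 and 4.65 with autologous plasma. *Clec7a*, the beta-glucan receptor dectin-1, rose by 2.26, *Tlr2*, a lipoprotein receptor, by 0.92, and *Tlr4*, the signalling partner of CD14, by 0.55. *Tlr4* lost its call without each of the 4 arrays (adjusted p = 0.0675 to 0.252), *Tlr7* did not pass (0.76, adjusted p = 0.0833), and *Ticam1* was lowest at -0.02. Fc, lectin and scavenger receptors were higher for 8 of 23 (median 0.461). *Fcgr2b*, the inhibitory IgG receptor, had 9.35 and 9.46 with 10% IH plasma and 7.70 and 7.62 with autologous plasma, *Siglec5*, a sialic acid-binding receptor, rose by 2.83 and *Clec12a*, an inhibitory lectin, by 1.28. *Fcer1g*, the signalling chain of several Fc receptors (0.81), lost its call without either 10% IH array or the BN1 autologous array, and *Olr1*, an oxidized LDL receptor (0.60), without each of the 4 arrays (adjusted p up to 0.179). *Fcer1a*, a chain of the mast cell IgE receptor, was lowest at -0.18.

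Complement genes and receptors were higher for 3 of 21 (median 0.02): *C3*, the central component, *Itgam* and *C5ar1*, the receptor of the C5a fragment. *C3* had 8.17 and 8.14 with 10% IH plasma, against 4.50 and 4.69 with autologous plasma (11.8-fold, adjusted p = 3.35e-06). *C5ar1* had 6.90 and 7.18 against 4.89 and 4.83 with autologous plasma, and *C5* was lowest at -0.20. Matrix and fibrinolysis genes were higher for 5 of 27, with a list median of -0.048. The 5 were *Fn1*, *Plaur*, the urokinase receptor (2.45), the membrane protease *Mmp14* (1.92), thrombomodulin, *Thbd* (1.69), and the protease inhibitor *Timp2* (1.46). By the less strict criterion of the study's methods, described below, 4 of the 27 were lower, where 3.62% of all genes were. *Plaur*, *Mmp14* and *Timp2* each have a dimmer probe set, at 0.23, 0.11 and 0.13, the lowest of 3 for *Thbd* was at 0.16, and *Serpine2* was the lowest member at -0.48. Lysosomal genes were higher for 4 of 27 (median 0.16), the proteases *Ctsz* (1.00), *Ctsb* (0.92), *Ctsl* (0.90) and *Lgmn* (0.67). *Ctsl* was called without each array, while *Ctsz* lost its call without the BN1 array of 10% IH, *Ctsb* without the BN2 array of either plasma and *Lgmn* without the BN1 array of either plasma (adjusted p = 0.0508 to 0.0926), and *Ctsk* was lowest at -0.14. In antigen presentation *Cd86*, a costimulatory ligand, was the 1 of 17 higher (0.65; median of the list 0.20), and it lost its call without the BN1 array of 10% IH or either autologous array (0.0946 to 0.134) and as the mean of its probe sets (0.53, adjusted p = 0.051). *RT1-DMa*, a chaperone of peptide loading, had 0.82 without passing, and *B2m* was lowest at -0.03.

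**Figure D3:**
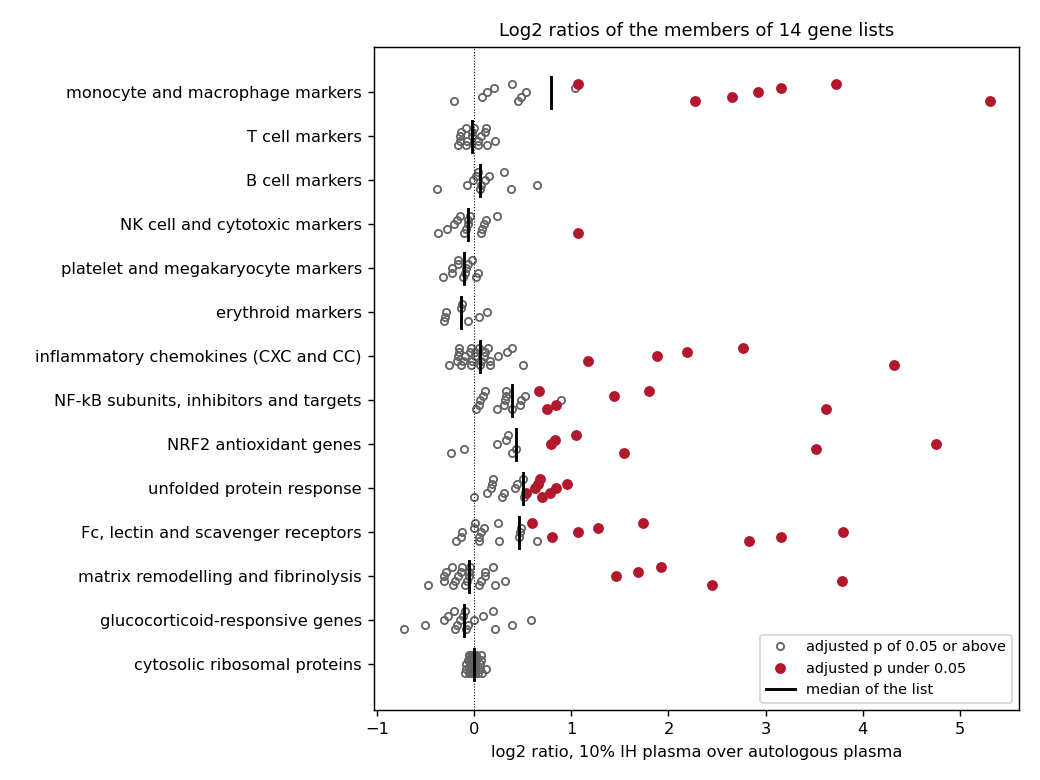
Log2 ratio of 10% IH over autologous plasma for every measured member of 14 gene lists, with members called higher as filled red points, members not called as open points and the median of each list as a black bar. Red points reach 5.31 among monocyte markers, while T cell, B cell, platelet and erythroid markers, glucocorticoid-responsive genes and ribosomal proteins have none.

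Of several other programmes 1 member or none was called, where 1.79% of all genes were called higher, so that counts of 0 or 1 in lists of this size lie near that share. Interferon-stimulated genes were higher for 1 of 28 (median 0.216), *Ubd*, with 8.08 and 7.73 with 10% IH plasma, against 6.27 and 6.12 with autologous plasma. *Ifit2* had 0.65 without passing and *Gbp4* was lowest at -0.46. Of 15 targets of p53 the death receptor *Fas* was the 1 higher (1.13, with a list median of 0.081). The mean of the 3 *Fas* probe sets gave 0.41 (limma adjusted p = 0.0906). *Cdkn1a* was at 0.39 in its brightest probe set and not called, but the mean of its probe sets gave 1.08 (limma adjusted p = 0.00141). *Zmat3* was at -0.28. Glucocorticoid-responsive genes were called for 0 of 18 (median -0.11), from *Rasd1* at -0.72 to *Il1r2* at 0.59. Lymphocyte activation and homing genes were called for 0 of 19 (median -0.0025), from *Tcf7* at -0.14 to *Ccr2* at 0.46. No member was called among 42 cytosolic ribosomal proteins (-0.09 for *Rpl39* to 0.12 for *Rplp0*), 30 ribosome biogenesis genes (-0.38 for *Noc3l* to 0.24 for *Tsr1*), 30 proteasome subunits (-0.18 for *Psmc6* to 0.23 for *Psmd8*), 36 respiratory chain genes (-0.27 for *Ndufa5* to 0.17 for *Uqcrfs1*) or 28 cell cycle genes (-0.17 for *E2f1* to 0.20 for *Ccnd2*). No member of any of the 40 lists was called lower with adjustment over all probe sets. By the mean of the probe sets of each gene, with adjustment over genes alone, *Spry2* was called lower (-0.38, limma adjusted p = 0.036). By that rule *Tlr7* (0.76, limma adjusted p = 0.0389) and *Ifit2* (0.62, 0.0372) were called higher, and interferon-stimulated genes were higher for 3 of 28.

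Falls were few and small. *Zcchc18*, a zinc finger gene, had 6.80 and 6.92 with 10% IH plasma, against 7.51 and 7.82 with autologous plasma (log2 ratio -0.81, standard error 0.128, adjusted p = 0.0169). *Slbp*, which binds the stem-loop of histone messages, had 6.95 and 7.15 against 7.84 and 7.81 with autologous plasma (-0.77, adjusted p = 0.0268). *Tmsb15b2*, a beta-thymosin, had 7.33 and 7.42 against 7.95 and 7.96 (-0.58), and *Ahi1*, a protein of the primary cilium, had 8.29 and 8.37 against 8.83 and 8.94 (-0.56). Where 37.9% of all genes showed no overlap between the groups, in either direction, these 4 genes showed none either, which a call on the same arrays nearly requires. Other probe sets of 2 of them differed: the highest of 3 for *Slbp* stood at -0.04 and the second of *Ahi1* at 0.0089, and with the mean of the probe sets neither was called (adjusted p = 0.101 and 0.279). None of the 4 kept its call without each array: without the BN1 array of 10% IH plasma the adjusted p ranged from 0.117 to 0.261 and 0 genes were called lower, while without the BN2 array of 10% IH plasma 35 were. With donor in the fit 2 genes were called lower, *Zcchc18* (adjusted p = 0.0404) and *Tmsb15b2* (0.0301), against 0.0542 for *Slbp* and 0.0581 for *Ahi1*.

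The criterion of the study's methods, a Rank Product p under 0.05 with a log2 ratio beyond 0.263 (1.2-fold), took 1594 probe sets higher (5.13%) and 1618 lower (5.21%), which gave 767 genes higher (5.39% of genes) and 514 lower (3.62%). Each direction was tested apart at a p under 0.05, a threshold that a like share of unchanged probe sets would pass. With an estimated share of false predictions under 0.05 instead, 137 probe sets were higher and 0 lower. The largest falls by the criterion of the methods, beyond the 4 above, did not pass in limma. *Hook3*, a linker of cargo to the motor dynein, had 5.63 and 6.40 with 10% IH plasma, against 7.02 and 7.30 with autologous plasma (-1.14, adjusted p = 0.113). *Eaf2*, a transcription elongation factor, was at -1.11, with -0.11 in BN1 and -2.12 in BN2, and *Wdr33*, of the polyadenylation complex, at -1.01, with -1.93 in BN1 and -0.09 in BN2. For both the difference thus lay mainly in the cells of 1 donor. *Rab40b* had 3.14 and 2.92 against 3.77 and 3.65 with autologous plasma (-0.68, adjusted p = 0.0916), similar in both donors, and *Jchain*, the joining chain of IgM and IgA, was at -0.68 with -1.13 in BN1 and -0.24 in BN2. *Vangl2* (-0.79), *Scaper* (-0.70), *Znrf3* (-0.69), *Rab27b* (-0.68) and *Bod1l1* (-0.67) had adjusted p from 0.0833 to 0.228. The fall of *Vangl2* was larger in BN2 (-0.56 in BN1 and -1.03 in BN2). Those of *Scaper* (-1.06 and -0.33), *Znrf3* (-1.09 and -0.29), *Rab27b* (-0.98 and -0.38) and *Bod1l1* (-1.04 and -0.30) were larger in BN1. The last of the 11 was *Rasd1*, a glucocorticoid-induced GTPase (-0.72, adjusted p = 0.496), with -0.06 in BN1 and -1.39 in BN2.

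**Figure D4:**
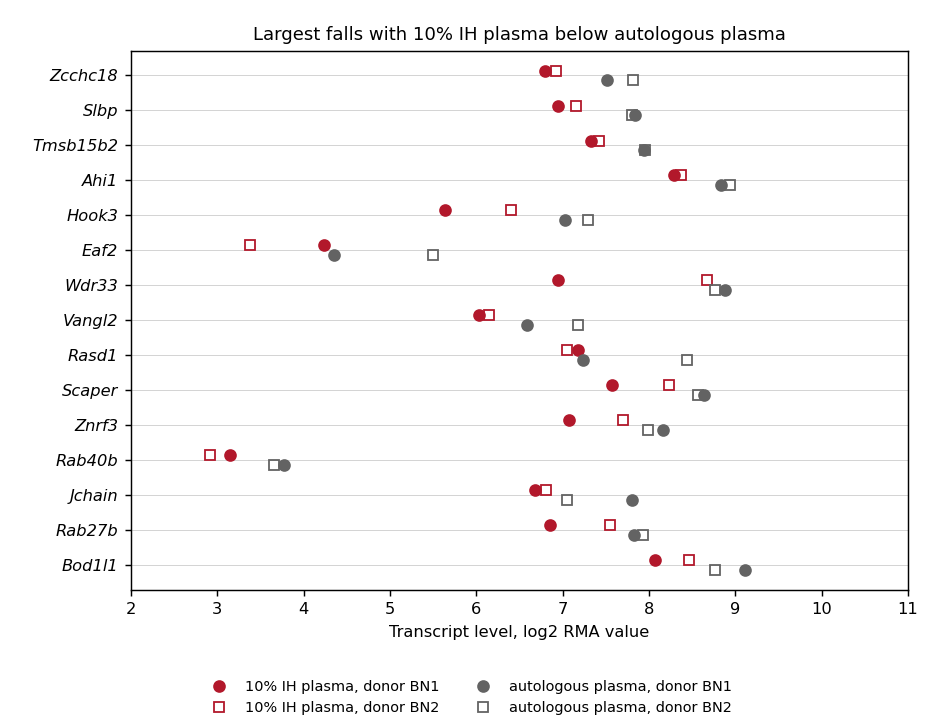
Log2 level on each of the 4 arrays for the 15 genes with the largest falls, with 10% IH plasma in red and autologous plasma in grey, donor BN1 as filled circles and donor BN2 as open squares. The upper 4 genes were called in limma and the lower 11 met the criterion of the methods alone; in *Wdr33* the 10% IH array of donor BN1 (6.94) lies far from that of BN2 (8.67).

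The 2 other Sprague-Dawley plasmas of the series were set against the same autologous arrays, so that the 3 comparisons share their background. With 5% IH plasma 361 genes were higher (2.54%) and 30 lower (0.211%), and with normoxic control plasma 314 were higher (2.21%) and 33 lower (0.232%). In the direct contrasts, limma called 0 probe sets between 10% IH and control plasma (lowest adjusted p = 0.92, 1612 at an unadjusted p under 0.05) and 0 between 10% IH and 5% IH plasma (0.981 and 1452). Calls arose in both contrasts without the BN2 array of 10% IH plasma, but then the group is the BN1 array alone, which stood apart on the second axis. They did not arise without the BN1 array. Of the 254 genes higher with 10% IH plasma, 248 were also called higher with 5% IH plasma, 236 with control plasma and 233 with both. Inflammatory chemokines had 5, 5 and 5 members called higher with 10% IH, 5% IH and control plasma. In that order the IL-1 family had 3, 5 and 3, NRF2 genes 6, 6 and 6 and the unfolded protein response 8, 9 and 9. Among the 254 genes, the difference between 10% IH and control plasma was at most 0.79 on the log2 scale and lay beyond 0.263 for 24. For *Cd14* the log2 ratio to autologous plasma was 5.31 with 10% IH, 5.68 with 5% IH and 5.28 with control plasma, and the difference of 10% IH from control was 0.03 (unadjusted p = 0.824).

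Ratios to autologous plasma are set side by side here for genes chosen after their values were seen. *Rasd1* had a ratio of -0.72 with 10% IH plasma, -2.33 with 5% IH and -2.27 with control plasma. Its levels were 7.17 and 7.05 with 10% IH plasma and 7.23 and 8.44 with autologous plasma, so that only the BN2 autologous array was clearly higher. A further 3 genes that glucocorticoids induce were picked for ratios nearer to 0 with 10% IH plasma, given here in the order 10% IH, 5% IH and control: *Tsc22d3*, the leucine zipper GILZ, was at -0.20, -0.63 and -0.70, *Fkbp5*, a co-chaperone of the receptor, at -0.51, -1.07 and -1.15 and *Ddit4* at -0.31, -0.62 and -0.77. Over the 18 glucocorticoid-responsive genes, 0 were called lower with 10% IH, 3 with 5% IH and 4 with control plasma, while their median ratios were -0.108, -0.0979 and -0.148, so that the list as a whole was not nearer to 0 with 10% IH than with 5% IH plasma. *Gadd45a*, a stress-induced growth arrest gene, stood at -0.18, -0.78 and -0.90, and *Lmo2*, a transcriptional cofactor of blood cells, at -0.26, -0.77 and -0.89. None of these differences between plasmas passed adjustment (against control, *Rasd1* differed by 1.54 on the log2 scale with an unadjusted p = 0.000763 and an adjusted p = 0.92, the lowest of that contrast).

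Ratios that were smaller with 10% IH plasma than with the other plasmas included those of *Ubd* (1.72 with 10% IH, 2.30 with 5% IH and 2.51 with control), *Cd86* (0.65, 1.26 and 1.21), *Fcer2* (0.65, 1.35 and 1.26) and *Plscr1*, an interferon-inducible scramblase (0.22, 0.78 and 1.01). *Cxcl1* lay between the others at 2.19, against 2.76 with 5% IH and 1.44 with control, as did *Cxcl2* at 4.33, 4.73 and 3.79 and *Il1b* at 4.12, 4.79 and 3.81. Interferon-stimulated genes were called higher for 1 of 28 with 10% IH, 8 with 5% IH and 3 with control plasma, where 1.79%, 2.54% and 2.21% of all genes were. Their median ratios were 0.216, 0.223 and 0.163, so that the list as a whole was not lower with 10% IH plasma. Of the 258 genes called in either direction (1.81%), 4 were called with neither 5% IH nor control plasma: *Cish*, *Rnf157*, a ubiquitin ligase (0.59), *Shmt2*, the mitochondrial serine hydroxymethyltransferase (0.51), and *Slbp*. Their ratios with the other plasmas had the same sign, 0.41 and 0.38 for *Cish*, 0.34 and 0.34 for *Rnf157*, 0.42 and 0.44 for *Shmt2* and -0.34 and -0.32 for *Slbp* with 5% IH and control, and their difference from control had an adjusted p = 0.92 or above. The calls of *Rnf157* and *Shmt2* were lost without the 10% IH BN1 array (limma adjusted p = 0.217 and 0.285), without the autologous BN1 array (0.184 and 0.182) and without the autologous BN2 array (0.0679 and 0.171). With donor in the fit *Shmt2* was also lost (adjusted p = 0.0613), and the mean of the *Rnf157* probe sets gave 0.36 (adjusted p = 0.111).

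**Figure D5:**
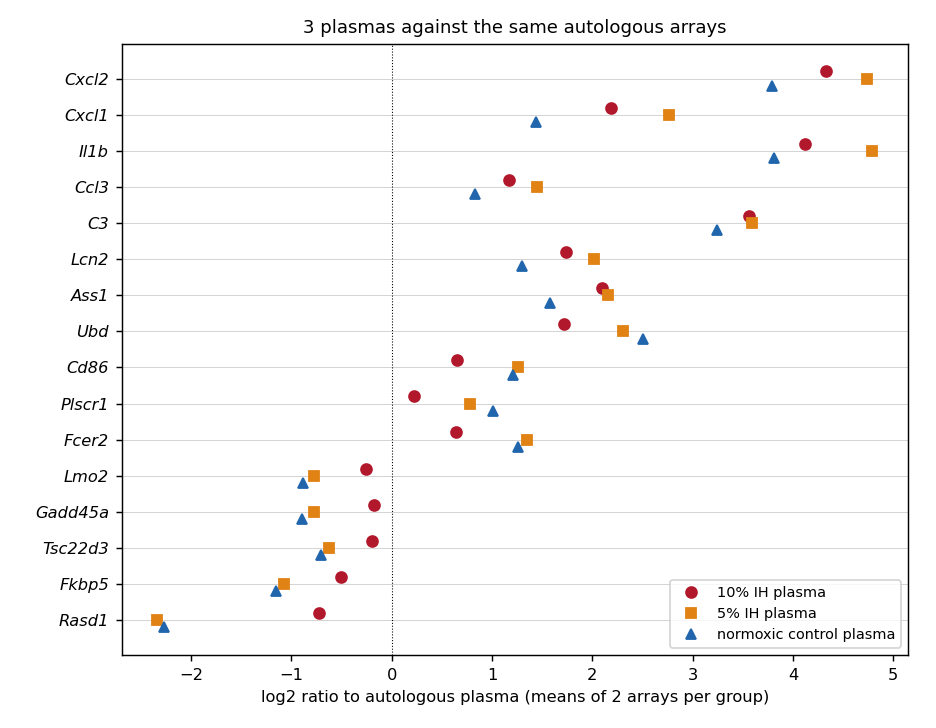
Log2 ratio to autologous plasma for 16 genes with 10% IH plasma (red circles), 5% IH plasma (orange squares) and normoxic control plasma (blue triangles), each from the means of 2 arrays, with the same 2 autologous arrays in all. *Rasd1* lies at -0.72 with 10% IH plasma and below -2 with the others, and *Plscr1* at 0.22, against 0.78 and 1.01.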

How the data were processed

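Transcript levels were measured on Affymetrix rat expression arrays, 1 per culture. The authors quantified the images with Expression Console and normalized all 8 arrays together by Robust Multichip Analysis, which corrects background, equalizes the arrays by quantiles and summarizes probes, and they deposited the resulting log2 values (31042 probe sets, 1.66 to 14.3). The submitters' processing notes name Partek, with no version. Normalization by quantiles sets array totals equal, so that a shift of all transcripts could not be seen.

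Probe sets were named by the platform annotation: 20826 had 1 symbol, 436 several and 9780 none. Group means were estimated with limma 3.58.1 (R 4.3.3) in 1 fit of plasma to all 8 arrays, with no term for donor (4 residual degrees of freedom, 2-sided), with adjustment over all probe sets. The Rank Product was an implementation in R on the 4 between-array ratios with 100 permutations, as RankProd could not be used. Both steps were tested on simulated data. There the criterion of the methods called far more unchanged probe sets than limma did, and limma missed most of the smallest changes. The first follows from the thresholds, since the p of the criterion is not adjusted and that of limma is. The simulated noise was independent between probe sets and held no donor effect. With 2 arrays per group, the number of arrays limits the precision, and the p-values measure only the spread between these cultures.

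Replicate numbers in the titles name the reporter donor and so pair the arrays. Deviations of same-numbered arrays from their group means correlated at -0.171 between 10% IH and autologous plasma, and at -0.0833 to 0.24 for the other pairs of plasmas. Named genes were the 15 largest rises and 15 largest falls among called genes with the same direction in both donors (falls filled up from the criterion of the methods, since fewer than 10 passed), leaving out unannotated loci, and from each of 40 lists (935 genes, 752 measured) the largest rise, the largest fall and members with a defining role. The members and lists were chosen with earlier results of these data known, and lists are described by counts and medians alone. Lists share genes. Promoters came from RefSeq tables. Alternatives were donor in the fit, the 4 compared arrays alone, an intensity trend with robust moderation, a filter at the 40th percentile, further normalization, other rules for probe sets, other Rank Product settings and each array left out, where the lone array of a group is assumed to vary like the other groups. Glucose tolerance and hormone measurements of the study were not analysed here.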

Additional observations from a re-analysis of the deposited data

How the results depend on the processing

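The number of genes higher with 10% IH plasma (254) was 163 with the 4 compared arrays alone and 135 with a log2 ratio beyond 1 required as well, and 241 to 334 under the other settings with all arrays; without 1 array it was 173 to 210. For probe sets (372 higher) the numbers were 237 and 206, and 258 to 333 without 1 array. The number of genes lower (4) was 2 with the replicate block, 1 with the compared arrays alone, 22 with an intensity trend and robust moderation, 7 without probe sets under the 40th percentile, 14 with 1 probe set per gene, 8 with the mean of probe sets, 0 beyond a log2 ratio of 1 and 0 to 35 without 1 array. The number of probe sets lower (17) was 8, 2, 71, 28 and 0 under the replicate block, the compared arrays alone, the trend, the filter and the ratio beyond 1, and 1 to 265 without 1 array. The replicate block, with donor as the pairing, gave 250 genes higher and kept 236 of the 254; of 121 called genes tracked by name, 6 lost their call (*Slbp*, *Ahi1*, *Bcl3*, *Manf*, *Slc2a1* and *Shmt2*) and none turned. Since the correlation of deviations was below -0.1 for 10% IH and autologous plasma, the crossed pairing was tried after the data were seen and gave 253 genes higher and 5 lower. Quantile normalization or median centring again gave 241 and 255 genes higher and 4 lower each. By the criterion of the methods 1594 probe sets were higher and 1618 lower; a 2-sided p gave 998 and 990, an estimated share of false predictions under 0.05 gave 137 and 0, and leaving out 1 array gave 1387 to 1819 and 1446 to 1787. Between 10% IH plasma and control or 5% IH plasma, 0 probe sets were called with all arrays, and leaving out 1 array gave 0 to 46 and 0 to 57. Quantile normalization again ended the calls of *Ahi1*, *Bcl3*, *Nr4a1*, *Manf*, *Creld2*, *Asl* and *Tlr4* (adjusted p = 0.0511 to 0.0743), and the compared arrays alone ended 32 of the 121. Median centring ended that of *Shmt2* (adjusted p = 0.0645). None of the 121 turned direction under the settings tried, except that the filter at the 40th percentile left the dimmest of them untested. That filter left *Ptgs2*, *Pla2g4a*, *Ccl2*, *Lcn2*, *Pdgfa* and *Csf3r* untested, among others. With it prostaglandin and leukotriene synthesis had 2 members called higher, iron handling 1 and neutrophil markers 0. Values near the lower end of the scale carry no detection call here, so that fold changes of genes with low autologous levels, such as these and *Akr1b8*, are uncertain in size.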

Other observations

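Other genes among the 254 higher with 10% IH plasma belong to groups that no list held, and those given here were chosen after their values were seen, with no test of the groups. Paired inhibitory and activating receptors of myeloid cells were among them. *Lilrb4*, an inhibitory immunoglobulin-like receptor, had 8.81 and 8.82 with 10% IH plasma, against 5.31 and 5.51 with autologous plasma (10.6-fold, adjusted p = 3.36e-06, limma). *Pilra*, another inhibitory receptor, rose by 3.35 and *Cd300a* by 2.68. *Sirpa*, which binds CD47, had 7.58 and 7.44 against 6.61 and 6.38 with autologous plasma, while the mean of its probe sets gave 0.39 (limma adjusted p = 0.0478). *Tyrobp*, the adaptor DAP12 of activating receptors, rose by 1.06, but lost its call without either 10% IH array or the BN1 autologous array (adjusted p = 0.0519 to 0.0815). *Ccr1*, a receptor of CCL3 and CCL5, had 7.74 and 7.85 against 4.22 and 5.22 with autologous plasma, so that this receptor rose (log2 ratio 3.08) beside its ligand *Ccl3*, while *Ccl5* did not pass. *P2ry2*, a receptor of extracellular ATP and UTP, rose by 1.89.

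Transcription factors of myeloid cells were higher too. *Cebpb* had 9.59 and 9.46 with 10% IH plasma, against 7.85 and 8.23 with autologous plasma (log2 ratio 1.48, adjusted p = 0.00105), and *Ets2* rose by 1.01. *Mitf*, which controls lysosome genes, rose by 1.08 and *Maf* by 0.86, and these lost their calls without the BN2 array of 10% IH or the BN1 autologous array (adjusted p up to 0.183; *Maf* also without the BN1 array of 10% IH, 0.131). Secreted and lysosomal proteins of macrophages rose by 2 log2 units or more in several cases: *Lgals3*, galectin-3, had 8.69 and 9.02 against 6.26 and 5.84 with autologous plasma, *Slpi*, a protease inhibitor, rose by 2.66, *Tnfsf13*, the B cell ligand APRIL, by 2.96, *Chi3l1*, a chitinase-like protein, by 2.03, *Cd63* by 2.32 and *Rab32*, a GTPase of lysosome-related organelles, by 2.73. *Ebi3*, a subunit of IL-27 and IL-35, had 8.60 and 8.56 against 6.98 and 7.02 with autologous plasma. Metabolic genes with rises of this size were *Bcat1*, which transaminates branched-chain amino acids (2.49), *G0s2*, an inhibitor of adipose triglyceride lipase (2.54), *Tgm2*, tissue transglutaminase (2.53; 0.20 in its second probe set), and *Prdx5*, a peroxiredoxin (2.16). The mean of the *Bcat1* probe sets gave 1.46. *Gjb2*, connexin 26, rose by 2.21 and *Hopx*, a homeodomain protein without DNA binding, by 2.05. The ratios of all these genes to autologous plasma were of the same sign with control plasma, such as 3.21 for *Lilrb4* and 1.15 for *Cebpb*.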
